A study of Arabidopsis thaliana with 30 samples.

Results

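XTH16 (AT3G23730), XTH19 (AT4G30290) and XTH33 (AT1G10550) encode xyloglucan endotransglucosylase/hydrolases, and their transcripts were followed over 10 groups of Arabidopsis seedlings. The genes were chosen by name from the annotation of the array, with earlier results of these data known. Each has a single probe set of its own there, so that 3 of 22746 probe sets are described. XTH19 and XTH33 were at their highest after 3 h of far-red light in both genotypes, whereas XTH16 was slightly lower then than at the start. At the 24 h harvests all 3 were below their level at the start, in white and in far-red light alike.

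Xyloglucan is the hemicellulose that coats and links cellulose microfibrils in the primary wall of most flowering plants. Enzymes of the XTH family cut a xyloglucan chain and join the new end to another chain (endotransglucosylation) or to water (hydrolysis), and so remodel the wall of growing cells and take part in its loosening. XTH19 belongs to a group of close relatives with XTH17, XTH18 and XTH20 that is best known from roots, and the XTH33 protein is known to be held at the plasma membrane. Elongation of hypocotyls and petioles in light rich in far-red, the shade avoidance response, depends on such wall changes.

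Whole seedlings of the Columbia wild type (WT) and of pifq, a line carrying pif1, pif3, pif4 and pif5 mutations, were measured on 1-colour arrays. The PIF proteins are basic helix-loop-helix transcription factors that bind phytochromes. Seeds of both lines were sown on medium without sucrose, received 1.5 h of white light once imbibed, and were chilled in darkness (5 days, 4 °C) and moved to 21 °C. There the seedlings had 2 days of white light (19 µmol/m2/s, red to far-red ratio 6.48), which is the WL0 harvest. The other harvests came after 1 h (FR1), 3 h (FR3) or 24 h (FR24) with far-red light added, which lowered the ratio to 0.006, or after 24 h more of white light alone (WL24). Each of the 10 groups had 3 arrays, 1 for each separately grown biological replicate, and this number limits the precision. The single mutant line means that the mutations and its background or seed stock cannot be told apart, and the labels name no ecotype for it.

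Levels are log2 signals from RMA (background correction, quantile normalization and 1 summary value per probe set), so that 1 unit is a doubling. Group levels are given as the mean ± SD of 3 arrays. Changes are given as a log2 difference ± SE, taken from a limma model of the 30 arrays together. A change was called at a Benjamini-Hochberg adjusted p under 0.05 over the 22746 probe sets. Arrays of a group correlated at 0.9945 to 0.9983 over all probe sets. None of the 4 PIF genes had a named probe set, so the genotype labels were not checked on them. Green tissue and root hairs could be checked against genes typical of them: LHCB4.1 and LHCB4.2, of the light-harvesting antenna, had group means of 12.62 to 13.54. EXPA7 and EXPA18, expansin genes of root hairs, had 5.96 to 8.62. The endodermis, xylem and seed storage markers listed had 0 named probe sets.

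XTH19 had the widest range of the 3 genes. In the wild type its signal was 9.08, 9.20 and 9.03 on the WL0 arrays, 9.63, 9.18 and 9.49 after 1 h of far-red light and 10.62, 10.43 and 10.61 after 3 h. In pifq it was 8.98, 9.05 and 9.23 at WL0, 9.19, 9.60 and 9.71 at 1 h and 10.28, 10.17 and 10.41 at 3 h. In both genotypes the 3 h arrays were all above the WL0 and 1 h arrays, and the 1 h arrays overlapped with those of WL0. The rise at 3 h was 2.73-fold in the wild type (1.45 ± 0.15, adjusted p = 2.48e-09) and 2.3-fold in pifq (1.2 ± 0.15, adjusted p = 1.88e-07), by limma. At 1 h the difference was 0.33 ± 0.15 (adjusted p = 0.117) in the wild type and 0.42 ± 0.15 (0.108) in pifq, neither of them called. The 1 h result rested on 1 array in each line: without WT FR1 replicate 2 the difference was 0.45 (adjusted p = 0.0471), and without pifq FR1 replicate 1 it was 0.57 (0.0295). In these whole-seedling samples, a change in the number of cells of a type and a change in RNA per cell cannot be told apart.

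XTH33 was already higher at 1 h. In the wild type its signal was 6.27, 6.31 and 6.54 at WL0, 7.10, 6.76 and 7.19 at 1 h and 7.36, 7.56 and 7.48 at 3 h. In pifq it was 5.98, 6.01 and 5.93, then 6.41, 6.55 and 6.72, then 7.10, 7.10 and 7.03. WL0, 1 h and 3 h arrays did not overlap in either genotype, where 33.3% of probe sets in the wild type and 31.8% in pifq kept 1 h and 3 h apart. The rise at 1 h was 1.56-fold in the wild type (0.64 ± 0.12, adjusted p = 0.000131) and 1.5-fold in pifq (0.59 ± 0.12, adjusted p = 0.00126). At 3 h it was 1.10 ± 0.12 (adjusted p = 5.52e-09) and 1.11 ± 0.12 (1.03e-08), or 2.14-fold and 2.15-fold, all by limma.

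XTH16 varied least. In the wild type its signal was 9.04, 9.05 and 8.95 at WL0, 8.82, 8.88 and 9.12 at 1 h and 8.70, 8.73 and 8.79 at 3 h. In pifq it was 8.74, 8.94 and 8.90, then 8.87, 9.07 and 9.11, then 8.41, 8.56 and 8.59. The 3 h arrays lay below all WL0 arrays in both genotypes, and those of 1 h overlapped with WL0. XTH16 fell by 0.27 ± 0.09 at 3 h in the wild type (adjusted p = 0.0118) and by 0.34 ± 0.09 in pifq (adjusted p = 0.0027), by limma. At 1 h it differed by -0.07 ± 0.09 (adjusted p = 0.646) and 0.16 ± 0.09 (0.38).

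**Figure D1:**
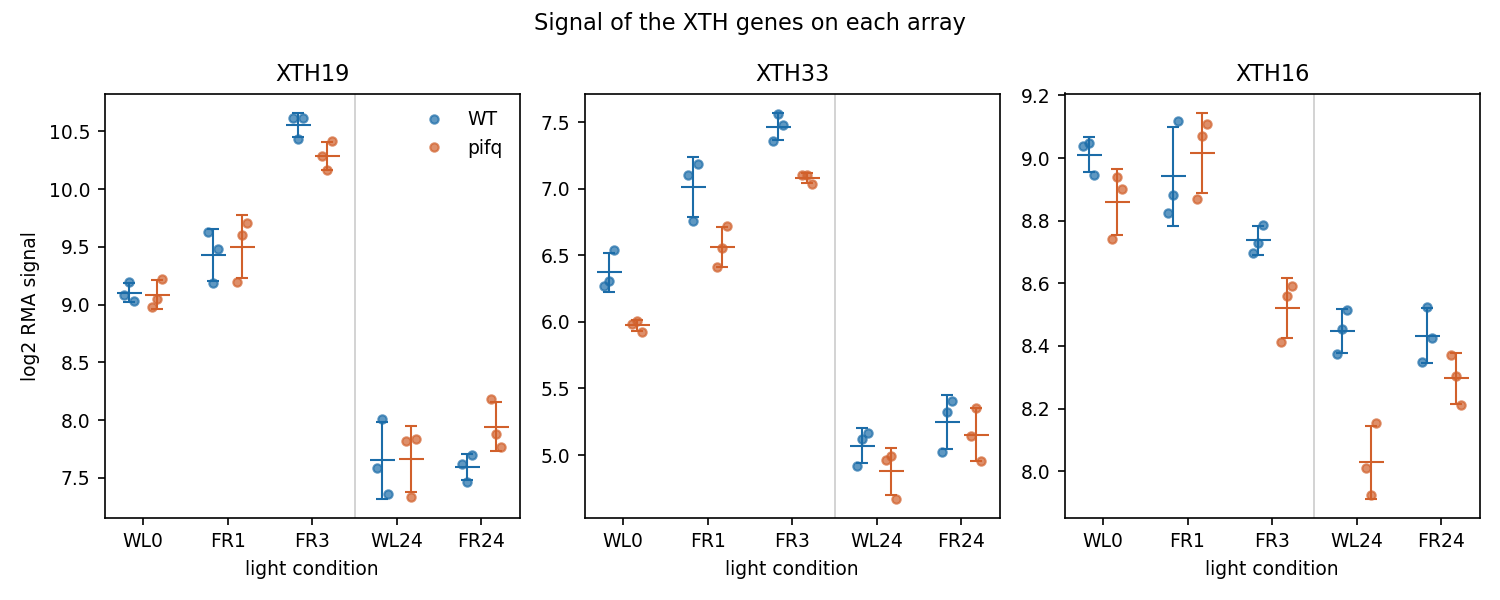
Log2 RMA signal (vertical axis, a separate scale for each gene) by light condition, with 1 point per array, blue for WT and orange for pifq, and a bar at the mean with its SD (n = 3). XTH19 and XTH33 are highest at FR3, and all 3 genes are lower at WL24 and FR24 than at WL0.

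At 3 h, 3 of the 3 genes were called in each genotype, 2 higher and 1 lower, and the arrays of all 3 lay apart from WL0. Over all probe sets 36.1% were called in wild-type seedlings (18.1% higher, 18% lower) and 29.9% in pifq (14.6% higher, 15.3% lower), while 47.3% and 42% did not overlap. At 1 h, 1 of 3 was called and lay apart in each, against 23.2% and 5.83% of all probe sets called and 37.1% and 24.4% apart. The WL0 seedlings were 1 h and 3 h younger than those they were compared with, so far-red light and elapsed time cannot be told apart at these times. Beside these changes the root hair gene EXPA7 fell by 1.02 ± 0.09 in the wild type and by 0.78 ± 0.09 in pifq at 3 h, and EXPA18 fell by 0.97 ± 0.10 and by 0.70 ± 0.10. Of the antenna genes, LHCB4.2 rose by 0.33 ± 0.07 and 0.57 ± 0.07, and LHCB4.1 rose by 0.22 ± 0.08 in pifq, with 0.16 ± 0.08 in the wild type (adjusted p = 0.0931, limma). The part of root or green tissue in the XTH results was not tested.

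From 1 h to 3 h, XTH19 rose by 1.12 ± 0.15 in the wild type (adjusted p = 1.17e-06) and by 0.79 ± 0.15 in pifq (0.000345), and XTH33 rose by 0.45 ± 0.12 (0.00521) and 0.52 ± 0.12 (0.0022). XTH16 fell by 0.50 ± 0.09 over this time in pifq (adjusted p = 0.000124), while the wild-type difference was -0.20 ± 0.09 (adjusted p = 0.0983). Of the 3 genes, 2 were thus called in the wild type and 3 in pifq, against 20.2% and 15% of all probe sets. The XTH33 call in the wild type ended without WT FR1 replicate 2 (0.32, adjusted p = 0.0741).

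Whether the genes responded unequally was tested on their difference within each array, which removes a shift common to both genes on that array. The far-red and white labels were permuted exactly within each genotype (two-sided, 400 arrangements, smallest possible p = 0.005), for 9 tests in all. At 3 h the response of XTH19 exceeded that of XTH16 by 1.72 in the wild type and 1.54 in pifq, and that of XTH33 exceeded it by 1.37 and 1.45 (p = 0.005 and adjusted p = 0.015 over the 9 exact tests for both). At 1 h the excess over XTH16 was 0.40 and 0.26 for XTH19 (p = 0.01, adjusted p = 0.0225, exact) and 0.71 and 0.43 for XTH33 (p = 0.005, adjusted p = 0.015, exact). XTH33 minus XTH19 was 0.32 and 0.17 at 1 h and -0.36 and -0.10 at 3 h, and neither passed the exact permutation test after adjustment (adjusted p = 0.081 and 0.0975). Leaving out WT WL0 replicate 3 brought the first of these past the threshold (adjusted p = 0.036, exact), and leaving out pifq WL0 replicate 3 the second (adjusted p = 0.045, exact). At 24 h the 3 pairwise differences of response, averaged over the genotypes, were -0.02 to 0.12 (adjusted p = 0.469 to 0.9, exact permutation).

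After 24 h of white light all 3 genes had fallen in both genotypes. XTH19 was 7.58, 8.01 and 7.36 on the wild-type WL24 arrays and 7.82, 7.34 and 7.84 on those of pifq, below every WL0 array. It fell by 1.45 ± 0.15 in the wild type (adjusted p = 1.13e-09) and by 1.42 ± 0.15 in pifq (2.16e-09). XTH33, at 4.92, 5.12 and 5.17 in the wild type and 4.96, 4.99 and 4.67 in pifq, fell by 1.30 ± 0.12 (adjusted p = 7.58e-11) and by 1.10 ± 0.12 (3.11e-09). XTH16, at 8.37, 8.45 and 8.51 and at 8.01, 7.92 and 8.15, fell by 0.56 ± 0.09 (1.77e-06) and by 0.83 ± 0.09 (1.72e-09). Large parts of the array changed over this time: 48.1% of probe sets were called in wild-type seedlings and 49.3% in pifq, and 54.2% and 54.4% did not overlap. The root hair genes fell over the same time, EXPA7 by 2.14 ± 0.09 and by 1.72 ± 0.09 and EXPA18 by 1.85 ± 0.10 and by 1.6 ± 0.10, and LHCB4.2 rose by 0.39 ± 0.07 in both genotypes. Their part in the XTH falls was not tested.

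FR24 seedlings have WL24 seedlings of the same age as their control. In the wild type XTH19 was 7.62, 7.47 and 7.69 at FR24, XTH33 was 5.02, 5.32 and 5.40 and XTH16 was 8.35, 8.52 and 8.43, each overlapping with its WL24 arrays. The differences were -0.06 ± 0.15 for XTH19 (95% interval -0.36 to 0.25), 0.18 ± 0.12 for XTH33 (-0.06 to 0.42) and -0.01 ± 0.09 for XTH16 (-0.19 to 0.16). By limma 0 of 3 were called (adjusted p = 0.304 to 0.932), and 0 had an unadjusted p under 0.05, against 23.2% of probe sets called and 34.4% apart.

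In pifq at FR24, XTH19 was 8.18, 7.88 and 7.77, XTH33 was 5.14, 5.35 and 4.96 and XTH16 was 8.37, 8.30 and 8.21. Only for XTH16 did these arrays lie apart from WL24, and it was called higher by 0.27 ± 0.09 (adjusted p = 0.0336, limma). Leaving out 4 of the 6 arrays, 1 at a time, ended that call: pifq FR24 replicate 1 (0.23, adjusted p = 0.128) or 2 (0.26, 0.0807), or pifq WL24 replicate 1 (0.26, 0.0765) or 2 (0.21, 0.164). It also ended when array medians were centred (0.24, adjusted p = 0.0518) and in a fit to these 6 arrays alone (adjusted p = 0.121). XTH19 differed by 0.28 ± 0.15 (adjusted p = 0.22) and XTH33 by 0.27 ± 0.12 (adjusted p = 0.117), where 14.8% of probe sets were called and 28.3% lay apart.

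The response with the same-age control was lower than the 3 h response for XTH19, by -1.51 ± 0.21 in the wild type (adjusted p = 9.4e-07) and -0.92 ± 0.21 in pifq (0.00146). For XTH33 the difference of the responses was -0.92 ± 0.17 (adjusted p = 4.64e-05) and -0.83 ± 0.17 (0.000345). XTH16 went the other way, by 0.61 ± 0.12 in pifq (adjusted p = 0.000387) and by 0.26 ± 0.12, not called, in the wild type (adjusted p = 0.103). All probe sets gave 34.8% called in the wild type and 24.7% in pifq. With WL0 as the control of FR24 instead, all 3 genes were lower in both genotypes, XTH19 by -1.51 and -1.14, XTH33 by -1.12 and -0.82 and XTH16 by -0.58 and -0.56.

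**Figure D2:**
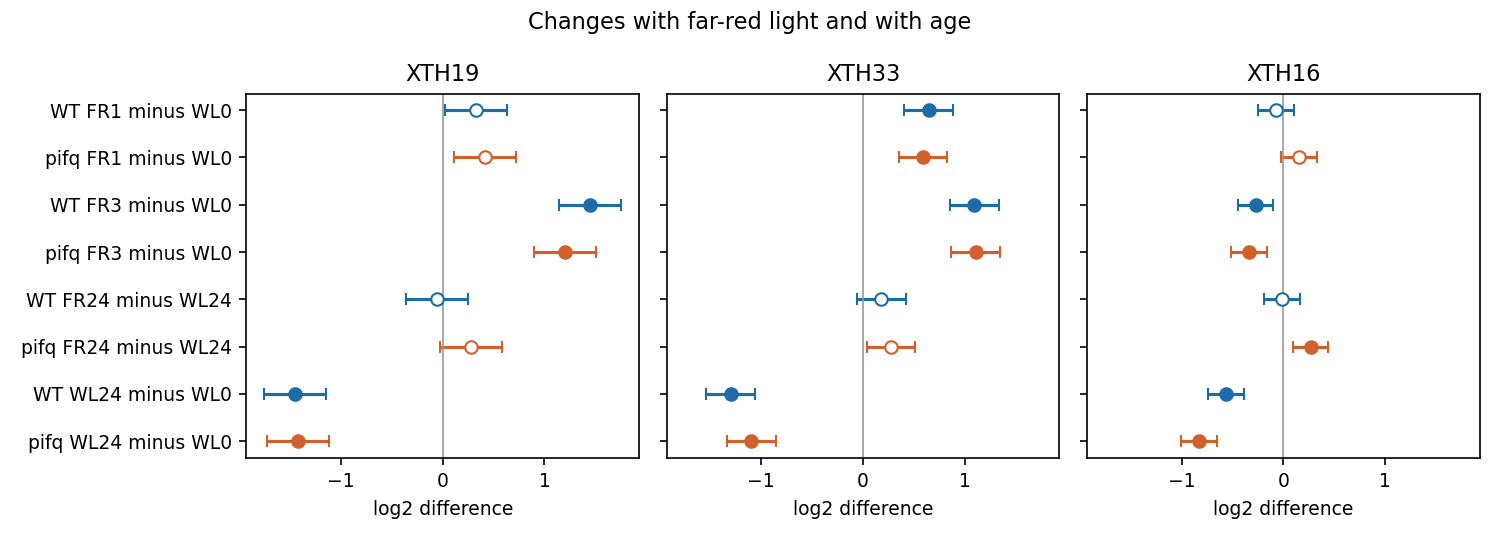
Log2 difference (horizontal axis) with its 95% interval for each far-red comparison and for 24 h of white light, blue for WT and orange for pifq, filled where limma called it. Both genotypes show rises of XTH19 and XTH33 of 1.10 to 1.45 at 3 h and falls of these 2 genes by 1.10 to 1.45 over 24 h of white light.

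The comparison of the 2 lines asks whether the responses need the 4 PIF genes. The difference between the responses of pifq and the wild type was called for 0 of the 3 genes at any time by limma, where 0.475%, 3.2% and 3.75% of probe sets were called at 1, 3 and 24 h. The 108 probe sets called at 1 h became 338 without WT FR1 replicate 3 and 68 without pifq WL0 replicate 2. Unadjusted p under 0.05 was reached by 0 genes at 1 h, 0 at 3 h and 1, XTH16, at 24 h (0.28 ± 0.12, adjusted p = 0.213). For XTH19 at 3 h the difference was -0.25 ± 0.21, with a 95% interval of -0.68 to 0.18, and for XTH33 it was 0.01 ± 0.17, with an interval of -0.33 to 0.35. For XTH16 at 3 h it was -0.07 ± 0.12, from -0.31 to 0.18. At 1 h the intervals ran from -0.34 to 0.52 for XTH19, from -0.39 to 0.28 for XTH33 and from -0.02 to 0.47 for XTH16. These intervals leave room for a smaller or larger response in pifq, so the results do not show that the lines respond alike.

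The level of XTH33 was lower in pifq under far-red light at the early times. It was lower by -0.45 ± 0.12 at FR1 (adjusted p = 0.00856) and by -0.39 ± 0.12 at FR3 (0.0299), and the arrays of the lines lay apart, as did those of 29.1% and 25.9% of probe sets. At WL0 they also lay apart (20% of probe sets), and the difference of -0.40 ± 0.12 was not called (adjusted p = 0.0836), though it was with array weights (0.0138) or with the 6 arrays alone (0.0298). At FR1 the call ended without WT FR1 replicate 1 (-0.41, adjusted p = 0.0535) or 3 (-0.37, 0.0524) or pifq FR1 replicate 1 (-0.38, 0.0668). At FR3 it ended without any array but WT FR3 replicate 1, with values of -0.34 to -0.40 and a highest adjusted p of 0.133. At 24 h XTH33 differed by -0.10 ± 0.12 in far-red (adjusted p = 0.692) and -0.19 ± 0.12 in white light (0.347). Its group means at 24 h, 4.88 to 5.25, lay below the array medians of 5.55 to 5.64. RMA can compress folds at such levels, both between lines and between light conditions. The root hair genes were called higher in pifq at FR1 (EXPA7 0.48 ± 0.09, EXPA18 0.45 ± 0.10), FR3 (0.31 ± 0.09 and 0.43 ± 0.10) and WL24 (0.49 ± 0.09 and 0.41 ± 0.10), and their part in the XTH differences was not tested.

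XTH16 was lower in pifq at WL24, by -0.42 ± 0.09 (adjusted p = 0.00191), with all 3 pifq arrays below the wild-type ones (21.8% of probe sets lay apart). Its differences in the other 4 conditions were -0.22 to 0.08, with adjusted p of 0.121 to 0.676, and its arrays also lay apart at WL0 and FR3 (unadjusted p = 0.0175 at FR3, limma). XTH19 differed by -0.27 to 0.35 between the lines over the 5 conditions and was not called in any (adjusted p = 0.158 to 0.984), though its arrays lay apart at FR3 and FR24 (25.5% of probe sets at FR24). The number of genes called was thus 0, 1, 1, 0 and 1 of 3 at WL0, FR1, FR3, FR24 and WL24, against 1.67%, 13.6%, 9.94%, 8.31% and 8.6% of probe sets. At WL0 and FR24, 1 of the 3 genes each had an unadjusted p under 0.05.

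Ranked by level, XTH19 ran from 10.55 ± 0.11 in wild-type FR3 to 7.59 ± 0.12 in wild-type FR24, a span of 7.78-fold. Its pifq FR3 arrays came next (10.29 ± 0.12) and lay apart from the wild-type FR3 arrays and from all others. The 4 groups at FR1 and WL0 followed, from 9.50 ± 0.27 in pifq FR1 to 9.09 ± 0.13 in pifq WL0, each overlapping with its neighbour. The 4 groups harvested at 24 h overlapped with their neighbours in the same way, from 7.94 ± 0.21 in pifq FR24 downwards. XTH33 ran from 7.47 ± 0.10 in wild-type FR3 to 4.88 ± 0.18 in pifq WL24, a span of 6.02-fold. Its order below the top was pifq FR3 (7.08 ± 0.04), wild-type FR1 (7.02 ± 0.23), pifq FR1 (6.56 ± 0.15), wild-type WL0 (6.37 ± 0.15) and pifq WL0 (5.97 ± 0.04). Of these neighbours, pifq FR3 and wild-type FR1 overlapped, as did pifq FR1 and wild-type WL0, and the 4 groups of 24 h overlapped in turn, with means of 5.25 and below. XTH16 spanned only 1.98-fold, from 9.02 ± 0.13 in pifq FR1 to 8.03 ± 0.12 in pifq WL24. Only 2 of its 9 neighbouring pairs of groups did not overlap, wild-type FR3 (8.74 ± 0.05) from pifq FR3 (8.52 ± 0.10) and pifq FR24 (8.30 ± 0.08) from pifq WL24.

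Over the 18 arrays of WL0, FR1 and FR3, XTH19 and XTH33 correlated at r = 0.85 (Spearman's rho 0.81), and over the 12 arrays of 24 h at r = -0.03 (rho 0.01). XTH16 correlated with XTH19 at r = -0.61 (rho -0.48) over the early arrays and r = 0.04 (rho -0.12) over the late ones. With XTH33 its values were r = -0.42 (rho -0.39) and r = 0.56 (rho 0.57). These are descriptions, since the arrays share groups, normalization and age.

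Of the 33 XTH genes 10 had a named probe set, and 7 besides the 3 described. At 3 h in the wild type 0 of these 7 rose and 4 fell, with a median of -0.20 against 0.00 over all probe sets, and in pifq 0 rose and 3 fell, with a median of 0.06 against 0.02. The share over the array was 18.1% higher and 18% lower in the first case and 14.6% and 15.3% in the second. Thus 0 higher of 7 is near it, while 4 and 3 lower of 7 are above it, which was not tested. The group means of XTH20, XTH21 and XTH29 were 3.14 to 3.80, far below the array medians of 5.55 to 5.64. The counts and medians of the 7 include these dim genes at every time. Of the 10 measured XTH genes, 2 were called higher at 3 h in each genotype, XTH19 and XTH33. That is also near the 18.1% and 14.6% of all probe sets called higher. XTH32, of the branch of the family that includes hydrolases, was 9.36 ± 0.03 at WL0 and 7.82 ± 0.10 at FR3 in the wild type, a fall by 1.54 ± 0.08 (adjusted p = 3.08e-15), and it fell by 1.08 ± 0.08 in pifq (2.26e-11). It was the only one of the 7 whose response differed between the lines at 3 h (0.46 ± 0.12, adjusted p = 0.0229), and leaving out any of 6 single arrays among the 12 ended that call (adjusted p up to 0.111), as did a fit to these 12 arrays alone (0.0655). XTH26, a root hair gene, fell by 0.87 ± 0.17 and by 0.63 ± 0.17 at 3 h. XTH20 fell by 0.48 ± 0.12 and by 0.50 ± 0.12 from dim WL0 levels, where RMA compresses folds. XTH27 (named EXGT-A3 in the annotation), which is known from developing xylem, fell by 0.20 ± 0.07 in the wild type (adjusted p = 0.0165), a call that ended without WT WL0 replicate 3 (0.0923) or WT FR3 replicate 1 (0.0874).

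XTH18 lies directly beside XTH19 on chromosome 4 and is a close relative. Its signal was 7.66 ± 0.23 at WL0 and 7.75 ± 0.12 at FR3 in the wild type, a difference of 0.09 ± 0.15 (adjusted p = 0.712), beside 1.45 for XTH19. In pifq it was 0.15 ± 0.15 (adjusted p = 0.503), beside 1.2. Whether probes of one of these 2 genes also bind transcripts of the other was not tested. XTH21 and XTH29 were called in 0 of the 6 far-red comparisons, as was XTH18. Group means of XTH21 (3.34 to 3.80) and XTH29 (3.20 to 3.58) lay far below the array medians of 5.55 to 5.64. RMA compresses folds at such levels, so these results do not show that XTH21 and XTH29 were unresponsive.

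At 1 h, 0 of the 7 rose and 2 fell in the wild type: XTH32 fell by 0.90 ± 0.08 (adjusted p = 2.29e-09), and XTH20 was lower by -0.34 ± 0.12 (0.0331), a call that 5 of the 6 arrays, left out singly, each ended. In pifq 0 rose and 1 fell, XTH32, by 0.53 ± 0.08 (6.65e-05). The medians of the 7 were 0.02 and 0.09, against -0.03 and -0.01 over all probe sets, of which 23.2% and 5.83% were called in either direction. At 24 h 2 of the 7 were higher in far-red than in white light in each genotype and 0 were lower. XTH26 was higher at FR24 than at WL24 by 1.34 ± 0.17 and XTH27 by 0.46 ± 0.07 in the wild type. The pifq values, 0.52 ± 0.17 (adjusted p = 0.0414) and 0.22 ± 0.07 (0.0218), were not called without 4 and 3 of the 6 arrays respectively, taken 1 at a time. Both pifq calls were also lost in a fit to the 6 arrays alone (adjusted p = 0.0826 for XTH26 and 0.159 for XTH27), and that of XTH27 with centred medians (0.0537). Medians were 0.12 and 0.20, against 0.00 and -0.03, and 23.2% and 14.8% of probe sets were called in either direction. EXPA7 was also higher at FR24 than at WL24, by 0.85 ± 0.09 in the wild type and 0.29 ± 0.09 in pifq, though below its WL0 level (8.10 at WL0 and 6.81 at FR24 in the wild type, 8.17 and 6.74 in pifq), and its part in these results was not tested. Over 24 h of white light 4 of the 7 fell in each genotype, while 2 rose in the wild type and 1 in pifq. Of all probe sets, 48.1% in the wild type and 49.3% in pifq were called in either direction over this time.

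Of 18 genes for xyloglucan synthesis and trimming, 5 had a named probe set, all of the CSLC family of glucan synthases. CSLC4, which makes the xyloglucan backbone, was 7.76 ± 0.01 at WL0 and 8.50 ± 0.06 at FR3 in the wild type. It rose by 0.52 ± 0.09 at 1 h and 0.73 ± 0.09 at 3 h (adjusted p = 4.1e-05 and 3.24e-08), and in pifq by 0.54 ± 0.09 and 0.61 ± 0.09. At FR24 it differed from WL24 by -0.42 ± 0.09 in the wild type (adjusted p = 0.000451), and the pifq difference was -0.04 ± 0.09 (adjusted p = 0.782). The difference between these 2 responses of CSLC4 was not called. By limma it was called at 24 h for 1 of the 5 CSLC genes, CSLC5, while 2 of the 5 had an unadjusted p under 0.05. In all, 3 of the 5 rose and 0 fell at 3 h in the wild type, and 1 rose in pifq, with medians of 0.34 and 0.02 against 0.00 and 0.02 over all probe sets, of which 18.1% and 14.6% were called higher. In pifq 1 of 5 is near that share. The other two calls in the wild type, for CSLC5 (0.35 ± 0.14, adjusted p = 0.0495) and CSLC8 (0.34 ± 0.13, 0.0337), were each lost on leaving out single arrays, any of the 6 for CSLC5 and 4 of the 6 for CSLC8. CSLC5 was lower at 24 h in the wild type (-0.47 ± 0.14, adjusted p = 0.0123), and its response then differed between the lines by 0.77 ± 0.20 (0.0215). The first of these calls ended without WT FR24 replicate 3 or WT WL24 replicate 2, and the second without any 1 of 5 of 12 arrays or with WL0 as the control.

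**Figure D3:**
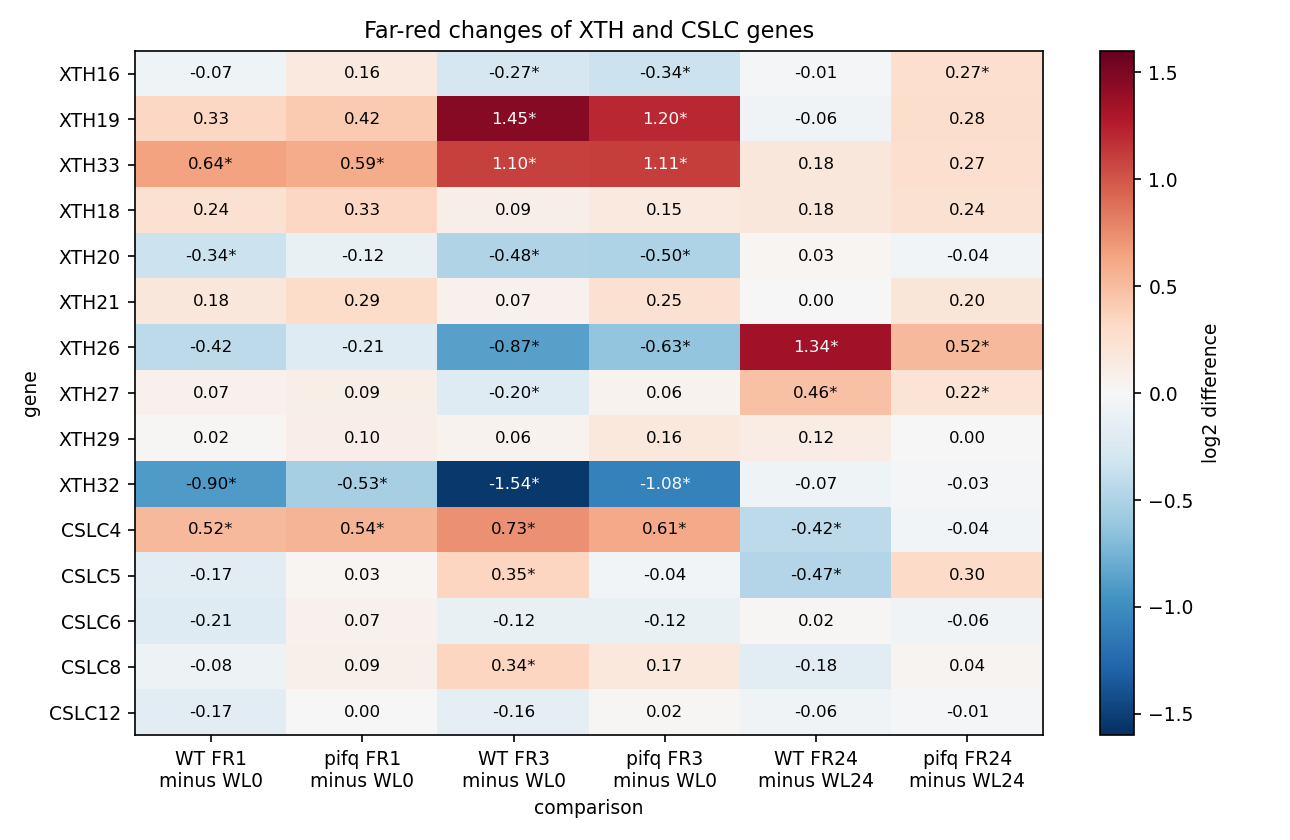
Log2 difference (colour scale and number) of the 10 XTH and 5 CSLC genes with a named probe set (rows) in the 6 far-red comparisons (columns), with a star where limma called it. XTH19 and XTH33 rise at 3 h while XTH32, XTH26 and XTH20 fall, and CSLC4 rises at 1 h and 3 h.

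The genes whose level followed each XTH gene most closely were sought among 358 probe sets with a symbol whose group means spanned at least 1 log2 unit. For XTH19 these were ARL, an ARGOS-like gene of organ growth, CPI1, of sterol synthesis, and TET7, a tetraspanin gene, at r = 0.98, 0.98 and 0.97 over the 10 group means. Within the 18 early arrays their r was 0.83, 0.82 and 0.74, and within the 12 late ones 0.75, 0.64 and 0.30. For XTH33 they were HMT-1, a homocysteine methyltransferase gene, JKD, a zinc finger gene of root patterning, and ARL, at r = 0.98, 0.98 and 0.97, with 0.84, 0.83 and 0.83 over the early and 0.18, 0.38 and 0.37 over the late arrays. For XTH16 they were AUR1, an Aurora kinase gene, BGLU15, a beta-glucosidase gene, and EXO (EXORDIUM), a gene of cell expansion, at r = 0.92, 0.89 and 0.89, with 0.57, 0.62 and 0.70 early and 0.59, 0.43 and 0.72 late. ARL rose by 0.83 ± 0.11 at 3 h in the wild type and by 0.40 ± 0.11 in pifq. The points share age, which separates the early from the late groups, and age was not separated from light in the correlations over all groups. The genes were picked as the closest of the 358 over these same arrays, so the early and late values are no independent check of the likeness.

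**Figure D4:**
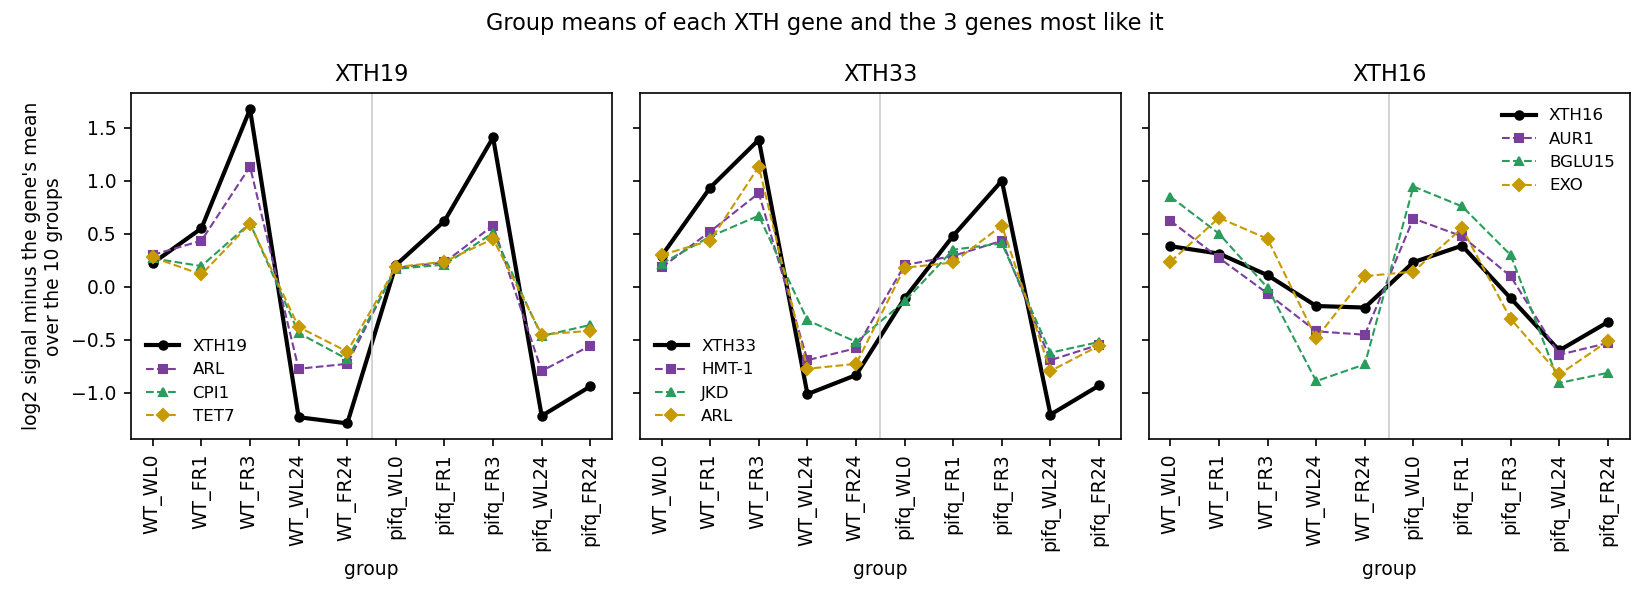
Group means minus each gene's mean over the 10 groups (vertical axis, log2) for each XTH gene (black) and the 3 genes most like it (dashed), with WT groups on the left and pifq on the right. XTH19 and XTH33 peak at FR3 and drop at WL24 and FR24, and the dashed genes beside these 2 span less. Those beside XTH16, which spans 0.99, had to span more than it does, because candidates needed a span of at least 1 log2 unit.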

How the data were processed

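Expression was measured in 30 whole-seedling samples on 1-colour Affymetrix arrays. The deposited values are log2 signals. The authors made them with RMA (version not given), per the submitters' processing notes. Quantile normalization hides any change of total RNA. Scanner files and scan batches were not used here. Every column was matched to its sample by name, and 0 columns were left unused. Of 22810 probe sets, 64 controls were left out and none was filtered on level. Names came from the platform annotation joined to the TAIR10.1 RefSeq gene table by gene ID: 13436 probe sets (59.1%) had 1 locus, 503 several genes, 77 an ID without a locus and 8730 no gene, so most family members have no named probe set here.

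The 30 arrays entered 1 linear model with a mean for each group (limma 3.58.1 in R 4.3.3, lmFit and eBayes, 20 two-sided comparisons). The model was run on simulated data with independent noise on each array, so deviations that arrays share were not covered. Pairs of members were compared by exact permutation. The named genes were the 3 members, the measured genes of the 2 lists, and for each member the 3 probe sets of highest correlation. Members, lists, tests and alternatives were chosen with earlier results of these data known. Replicate numbers are shared between groups in the labels. Same-numbered arrays deviated together (every correlation over 0.1) in 1 of 15 comparisons of 2 groups, pifq FR1 against WL0, and the correlations ranged from -0.18 to 0.28. The alternatives were a replicate block, array weights, trended and robust eBayes, only the arrays compared, only probe sets above the median level, centred medians, WL0 as the 24 h control and leaving out each array. No table of promoter or protein sequences was used here.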

Additional observations from a re-analysis of the deposited data

How the results depend on the processing

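With a replicate block, no call of the 3 genes changed in any of the 60 gene and comparison pairs. For pifq at 1 h, where same-numbered arrays deviated weakly together, XTH33 kept 0.59 (adjusted p = 0.00151, limma) and XTH19 0.42 (0.119). The call of CSLC5 in the wild type at 3 h was lost with this block (0.35, 0.0544). With the 6 compared arrays alone, XTH19 was called in the wild type at 1 h (0.33, adjusted p = 0.0436), XTH33 in pifq against WT at WL0 (-0.40, 0.0298), and XTH16 was lost in pifq at 24 h (0.27, 0.121), as with centred medians (0.24, 0.0518). Array weights called XTH19 in pifq at 1 h (0.46, 0.0164) and XTH33 between lines at WL0 (-0.40, 0.0138), and turned 2 uncalled differences: the XTH33 response between lines at 1 h (0.10) and XTH19 between lines at WL24 (-0.015). WL0 as the 24 h control gave -0.58, -1.51 and -1.12 for XTH16, XTH19 and XTH33 in the wild type, -0.56, -1.14 and -0.82 in pifq, and -0.99 and -1.41 for XTH26; that control differs in age. Leaving out single arrays gave XTH19 at 1 h 0.23 to 0.45 (WT) and 0.31 to 0.57 (pifq), XTH16 in pifq at 24 h 0.21 to 0.33, XTH33 between lines -0.58 to -0.37 (FR1) and -0.44 to -0.34 (FR3), XTH33 from 1 h to 3 h in WT 0.32 to 0.54, and XTH33 minus XTH19 0.20 to 0.30 (1 h) and -0.28 to -0.17 (3 h). Uncalled values that changed sign this way were WT at 24 h (XTH16 -0.060 to 0.028, XTH19 -0.20 to 0.12), responses between lines (XTH19 at 1 h -0.037 to 0.24, XTH33 -0.18 to 0.030, -0.072 to 0.062 and -0.019 to 0.19 at 1, 3 and 24 h), XTH19 between lines (-0.088 to 0.035 at WL0, -0.055 to 0.22 at FR1, -0.13 to 0.19 at WL24) and XTH19 minus XTH16 at 24 h (-0.11 to 0.072). Counts over all probe sets moved by over 1.5 times for pifq at 1 h (1325, or 2405 with weights), pifq at 24 h (3377, or 1685 with the compared arrays alone), the lines at WL0 (380, or 1116 with weights) and WL24 (1957, or 572 alone) and at FR24 (1891, or 1225 alone), and for responses between lines at 1 h (108, or 714 with weights and 180 with trended robust eBayes), 3 h (727, or 1247 with weights) and 24 h (854, or 389 alone and 467 with WL0). Leaving out 1 array moved counts by over 1.5 times for pifq at 1 h (845 without pifq FR1 replicate 2), pifq at 24 h (2212 without pifq WL24 replicate 2), responses between lines at 1 h (68 without pifq WL0 replicate 2, 338 without WT FR1 replicate 3), and the lines at WL0 (237 to 244 without WT WL0 replicate 1 or 2 or pifq WL0 replicate 3), FR1 (3102, or 1713 and 1906 without replicate 1 of WT or pifq) and FR3 (2262, or 1492 without pifq FR3 replicate 3), and pifq from 1 h to 3 h (3404, or 2031 without pifq FR3 replicate 1). With WL0 as control 10874 and 10606 were called at 24 h in WT and pifq, against 5283 and 3377. Of the 3 genes most like each XTH gene, 2 or 3 were shared on leaving out any array and with centred medians, alternatives chosen after seeing the data. The cause of these shifts was not tested.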
